A study of Mus musculus with 4 samples.

Results

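The nuclear-encoded genes of the respiratory chain were followed across the cell classes of dissociated mouse brain and between preparations made without and with inhibitors of transcription and translation. Members were all genes whose symbol begins with Ndufa, Ndufb, Ndufc, Ndufs or Ndufv, with Uqcr, with Cox4 to Cox8, or with Atp5, which gave 89 of the 31053 genes in the count matrices. They comprised 36 genes of complex I, 8 complex I assembly factors (Ndufaf1 to Ndufaf8), 8 genes of complex III, 20 of complex IV and 17 of complex V. Ndufa4 and Ndufa4l2 were counted with complex IV, of which the Ndufa4 protein is now known to be a subunit. The 89 genes carried 88 symbols because Atp5o was listed with a pair of identifiers. One of these and the testis gene Cox8c had no UMI in any kept cell, where a UMI is one counted RNA molecule. Cyc1, Usmg5 and Atpif1, which also belong to these complexes or act on them, do not match the rule and were not included.

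Complexes I, III and IV of the inner mitochondrial membrane pass electrons from NADH to oxygen and pump protons, and complex V, the ATP synthase, uses the proton gradient to make ATP. Most subunits are encoded in the nucleus and imported, whereas the catalytic core includes 13 proteins made from mitochondrial DNA. Several nuclear genes, most of them of complex IV, exist as alternative isoforms that replace one another in particular tissues such as muscle, lung or testis. Epithelium of the choroid plexus secretes cerebrospinal fluid by active ion transport and is known to be rich in mitochondria.

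The whole brain of each of 4 male mice (C57BL/6J, postnatal day 90) was enzymatically dissociated, and 1 droplet library with 3′ UMI counts was made per animal. In 2 mice no inhibitor was used, and in the other 2 actinomycin D and triptolide, which block transcription, were present from perfusion to digestion, with the translation inhibitor anisomycin added from dissection on. The labels place all 4 libraries in 1 batch, and no genetic change was made in any mouse. After filtering, 9861 of 12487 barcodes were kept, with 2089 to 2810 cells and 4531945 to 6114181 UMIs per animal and median depths of 1440 to 1686 UMIs per cell, and 67 barcodes occurred in more than 1 library. Clusters were named only by fixed marker genes and are therefore called "-like". The respiratory chain genes themselves were left out of the clustering. Of the named classes, 8 had at least 20 cells in every animal and were tested: choroid plexus-like (625 cells), ependymal-like (187), pericyte-like (132), endothelial-like (1718), microglia-like (3253), astrocyte-like (1950), neuron-like (313) and oligodendrocyte-like (891). All 7 markers of the choroid plexus and all 8 of pericytes were detected.

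Nuclear-encoded subunits of the 4 complexes together took the greatest share of transcripts in choroid plexus-like cells. In the 4 animals, given here and below with the 2 mice without inhibitors first, this share was 7.49, 8.13, 9.31 and 9.21% of the UMIs of the class (mean 8.54% ± 0.877, SD, n = 4). Pericyte-like cells followed with 3.31% ± 0.131, astrocyte-like cells with 2.89% ± 0.134 and ependymal-like cells with 2.56% ± 0.123. Endothelial-like cells had 2.39% ± 0.074, oligodendrocyte-like cells 2.37% ± 0.118 and neuron-like cells 2.25% ± 0.571, and these 3 neighbours in the order did not differ beyond their spread. Microglia-like cells were lowest at 1.67% ± 0.044. No choroid plexus-like value overlapped any value of another tested class, and no microglia-like value did either. Among the classes too small to test, smooth muscle-like cells had 3.99% and fibroblast-like cells 3.0%. Erythrocyte-like cells had 1.16%, and the globin gene Hba-a1 alone took 13.9% of their UMIs. The part of this gene in their low share was not tested.

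The choroid plexus-like share was higher with inhibitors, and the share of a single transcript, Ttr, differed between the groups as well. Ttr, which encodes the secreted carrier transthyretin, took 34.8, 26.3, 21.5 and 20.3% of the UMIs of these cells in the same order of animals. With Ttr left out of the total the share was 11.5, 11.0, 11.9 and 11.6% (11.5% ± 0.337), and the distance between the groups was smaller. The part of Ttr in that distance was not tested.

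**Figure D1:**
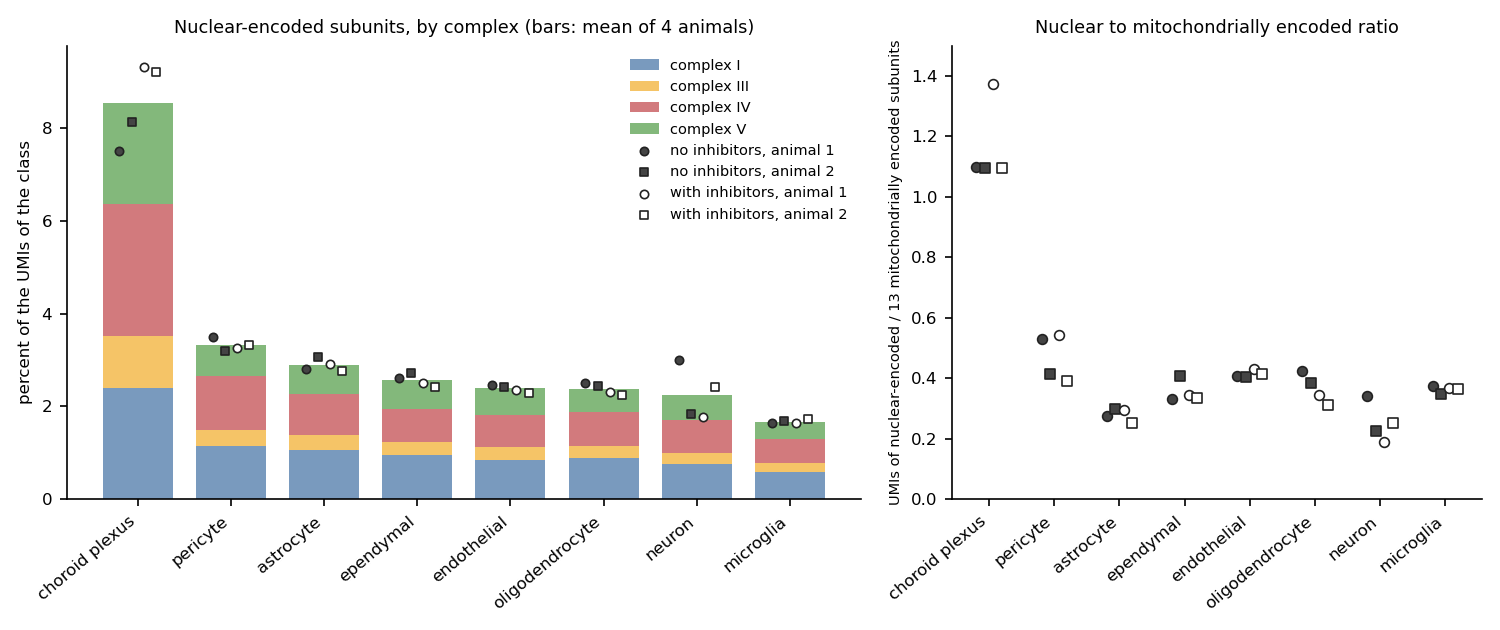
Left, nuclear-encoded subunits as percent of the UMIs of each class, stacked by complex (bars, mean of 4 animals; points, total of each animal); right, UMIs of nuclear-encoded subunits divided by UMIs of the 13 mitochondrially encoded subunits. Choroid plexus-like cells stand apart on both axes, with means of 8.54% and 1.17, and microglia-like cells have the lowest share at 1.67%.

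Set against the 13 subunits encoded in mitochondrial DNA, choroid plexus-like cells were again apart. UMIs of nuclear-encoded subunits were 1.10, 1.10, 1.37 and 1.10 times those of the mitochondrially encoded ones in the 4 animals (1.17 ± 0.138). In the other tested classes the ratio lay between 0.252 in neuron-like and 0.470 in pericyte-like cells, with 0.281 ± 0.021 in astrocyte-like cells. This ratio moved with the limit on mitochondrial UMIs per cell: at most 10% in place of 20% gave 2.39 in choroid plexus-like and 0.406 in astrocyte-like cells. Under that limit neuron-like cells no longer had the lowest ratio. The balance between complexes differed less than the total. Complex IV made up 33.3% of the nuclear-encoded subunit UMIs in choroid plexus-like cells, complex I 28.0%, complex V 25.4% and complex III 13.3%. In the other tested classes complex I held between 33.7% (neuron-like) and 37.4% (oligodendrocyte-like), and in pericyte-like cells complex IV held 35.1% and complex V 19.7%.

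Gene by gene, almost the whole chain was higher in choroid plexus-like cells. Each class was compared with the unweighted mean of the other 7 by edgeR's quasi-likelihood test on UMI sums per animal and class, with the animal as block, and a call needed both an adjusted p (Benjamini-Hochberg over all genes tested) under 0.05 and a log2 difference beyond 0.58 in either direction. Of 85 members tested, 81 were called higher and 2 lower in choroid plexus-like cells, where 25.8% of all 12038 genes tested were called higher and 19.9% lower. The median log2 difference was 2.12 over the members and -0.13 over all genes. All 36 tested genes of complex I were called higher (median log2 difference 2.01), as were all 8 of complex III (2.68), 15 of 17 of complex IV (2.54), all 16 of complex V (2.49) and 6 of 8 assembly factors (1.30). The assembly factors Ndufaf2 (log2 difference 0.28) and Ndufaf7 (0.57) were not called in either direction. The scaling mattered to the size: with total UMIs alone the median of all genes shifted to -0.84 and that of the members to 1.41, with 70 called higher and 2 lower.

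Core subunits spanned the range. Atp5b, the catalytic beta subunit of the ATP synthase, was higher by a log2 difference of 1.93 (SE 0.09, adjusted p = 6.14e-94 by edgeR's quasi-likelihood test) and Atp5j2, a small subunit of its membrane part, by 2.53. Uqcrfs1, the Rieske iron-sulfur protein of complex III, was higher by 2.06 and Uqcrc1, a core protein of the same complex, by 1.47. Ndufs1 and Ndufv1, the iron-sulfur and flavin subunits of complex I through which electrons from NADH enter, were higher by 1.06 and 1.13 on this scale. In counts-per-million of all UMIs in the class (CPM), Ndufs1 was highest in astrocyte-like cells (79.1) and Ndufv1 in pericyte-like cells (103), and their choroid plexus-like means were 1.11 and 1.25 times the mean of the other 7 classes. In CPM 64 of the 83 members with UMIs in all 8 classes were highest in choroid plexus-like cells, and the median over the 83 was 2.59 times the mean of the other 7. The smallest called difference was 0.82 for Cox7a2l, counted here with complex IV. Apart from the isoform genes described below, Ndufa1, an accessory subunit of complex I, had a log2 difference of 3.62 (SE 0.09). The assembly factor Ndufaf6 was called higher at 48.0, 34.6, 50 and 61.5 CPM, but had no UMI in pericyte-like cells, and its fitted difference of 3.81 depends on the value assumed for zeros. Ndufa4 reached 2714, 2797, 3710 and 3828 CPM in choroid plexus-like cells (log2 difference 3.54, SE 0.08).

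Ependymal cells line the ventricles next to the choroid plexus and are related to its epithelium by origin. Against ependymal-like cells alone, 77 of 85 members were called higher in choroid plexus-like cells and 0 lower, with 19.7% and 25.9% of all genes called in these directions. An unadjusted p under 0.05 by edgeR's quasi-likelihood test was found for 78 members, all of them higher, and for 6220 of 12038 genes in either direction. DESeq2 called 1 member lower. The median log2 difference was 2.17 over the members against -0.18 over all genes. Atp5g1 (log2 difference 4.54, SE 0.16) and Cox7b (3.75, SE 0.16), a small subunit of complex IV, were among those that differed most. The 8 members not called comprised 4 assembly factors (Ndufaf2, Ndufaf3, Ndufaf7 and Ndufaf8), Atp5s, Ndufb5, Cox4i2 and Ndufa4l2.

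The largest differences in choroid plexus-like cells belonged to isoforms known from muscle, heart or testis. Cox8b, the muscle and heart form of subunit 8 (chr7:140898945-140900446, minus strand, GRCm38), stood at 707, 846, 1142 and 1089 CPM in choroid plexus-like cells. In the other 7 tested classes its mean was at most 5.23 CPM. Pericyte-like cells had no Cox8b UMI among 191 UMIs of Cox8a and Cox8b, which allows a share of up to 1.57%. Its fitted log2 difference of 9.25 depends on the value assumed for such zeros and is no measure of fold. Pooled over the animals, there were 3.24 Cox8b UMIs per 1000 Ttr UMIs in choroid plexus-like cells and 0 to 2.74 in the other tested classes. Macrophage/monocyte-like cells had 6.04, on 2 Cox8b UMIs. In choroid plexus-like cells Cox8b was higher and Ttr lower with inhibitors, so the ratio differed between animals. In microglia-like cells Cox8b had 5, 10, 0 and 0 UMIs while Ttr stood at 2741, 3760, 1980 and 3767 CPM. The source of these few UMIs was not tested. Cox8b took 16, 17.5, 17.4 and 16.7% of the subunit 8 UMIs (Cox8a plus Cox8b) in choroid plexus-like cells, with exact 95% binomial intervals from 14.7 to 17.4% in the first animal and from 14.8 to 18.7% in the fourth. Such intervals cover counting error only.

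Cox6b2, the testis form of subunit 6b (chr7:4751792-4753094, minus strand), stood at 348, 449, 445 and 457 CPM in choroid plexus-like cells (log2 difference 5.0, SE 0.12). It took 17.3% ± 2.26 of subunit 6b UMIs there, 10.4% ± 3.76 in ependymal-like cells and 0.58% (mean of 4 animals) in endothelial-like cells. Cox7a1, the muscle and heart form of subunit 7a (chr7:30184144-30186078, plus strand), stood at 172, 207, 280 and 206 CPM (log2 difference 4.68, SE 0.15) and took 10.6% ± 1.40 of subunit 7a UMIs. In ependymal-like cells Cox7a1 took 9.80% ± 3.45, so that the isoform shares of the pair of epithelia overlapped although the levels did not, with 28.6 to 74.4 CPM of Cox7a1 in ependymal-like cells. Atp5g1, 1 of 3 genes for the same c-ring subunit of the ATP synthase, stood at 3035, 3428, 3995 and 4131 CPM in choroid plexus-like cells and at means of 238 to 414 in the other tested classes (log2 difference 4.28, SE 0.08). It took 75.0% ± 1.11 of the c-ring UMIs there, against means of 29.3% (ependymal-like) to 48.4% (neuron-like) elsewhere. The other muscle isoform, Cox6a2, took no more than 1.68% of subunit 6a UMIs in any tested class.

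**Figure D2:**
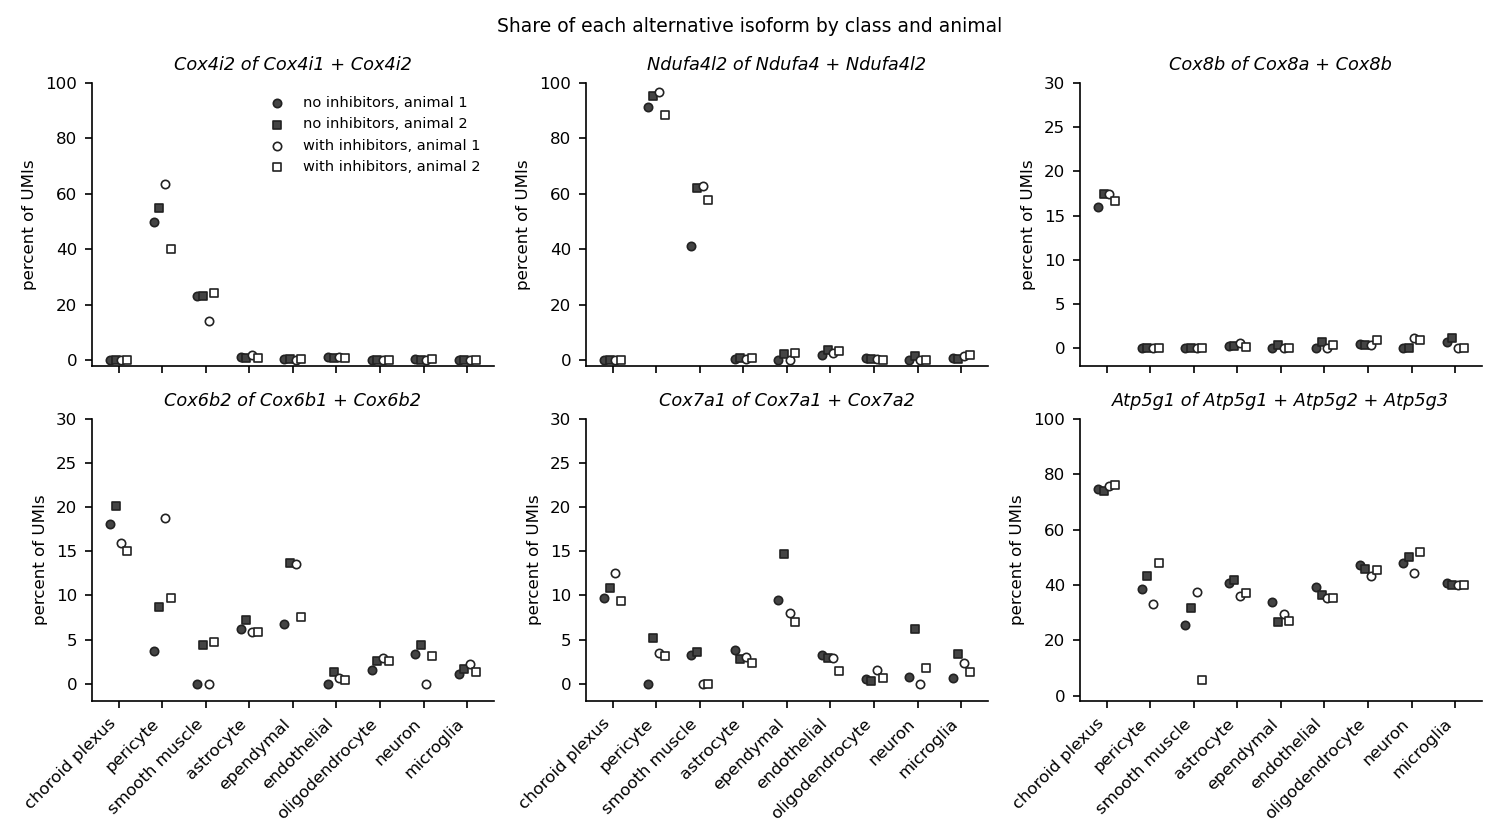
Percent of the UMIs of a subunit that came from the named isoform, by class and animal (filled, no inhibitors; open, with inhibitors; circles and squares, animals 1 and 2). Cox4i2 and Ndufa4l2 are prominent in pericyte-like and smooth muscle-like cells, Cox8b in choroid plexus-like cells, and Atp5g1 is highest in choroid plexus-like cells at 74 to 76%.

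The promoters of Cox8b, Cox6b2 and Cox7a1 held fewer CpG dinucleotides than those of their common counterparts Cox8a, Cox6b1 and Cox7a2. They are shown for Cox8 and Cox6b, the pairs in which the rarer form took the largest share of choroid plexus-like UMIs. Each window runs 5′ to 3′ from 250 bases before to 50 after the start of the gene (RefSeq, GRCm38.p6), and capitals mark every CpG dinucleotide.
Cox8a, chr19:7217567-7217866, minus strand: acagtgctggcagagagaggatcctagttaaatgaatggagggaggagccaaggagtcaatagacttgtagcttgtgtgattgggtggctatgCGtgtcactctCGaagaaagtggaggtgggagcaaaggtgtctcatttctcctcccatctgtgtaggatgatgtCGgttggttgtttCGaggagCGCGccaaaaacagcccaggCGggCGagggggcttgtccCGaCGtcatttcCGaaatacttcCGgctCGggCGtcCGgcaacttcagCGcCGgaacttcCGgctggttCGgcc
Cox8b, chr7:140900397-140900696, minus strand: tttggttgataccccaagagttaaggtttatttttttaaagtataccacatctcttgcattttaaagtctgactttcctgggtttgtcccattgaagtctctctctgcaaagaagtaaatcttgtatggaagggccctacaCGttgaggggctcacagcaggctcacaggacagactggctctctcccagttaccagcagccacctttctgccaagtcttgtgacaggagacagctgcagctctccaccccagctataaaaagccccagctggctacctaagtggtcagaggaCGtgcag
Cox6b1, chr7:30626065-30626364, minus strand: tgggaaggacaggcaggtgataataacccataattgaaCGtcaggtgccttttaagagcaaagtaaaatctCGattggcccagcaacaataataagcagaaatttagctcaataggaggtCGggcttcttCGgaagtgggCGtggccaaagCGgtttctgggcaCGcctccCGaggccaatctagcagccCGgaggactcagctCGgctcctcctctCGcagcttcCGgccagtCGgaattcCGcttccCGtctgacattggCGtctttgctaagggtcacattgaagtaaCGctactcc
Cox6b2, chr7:4753045-4753344, minus strand: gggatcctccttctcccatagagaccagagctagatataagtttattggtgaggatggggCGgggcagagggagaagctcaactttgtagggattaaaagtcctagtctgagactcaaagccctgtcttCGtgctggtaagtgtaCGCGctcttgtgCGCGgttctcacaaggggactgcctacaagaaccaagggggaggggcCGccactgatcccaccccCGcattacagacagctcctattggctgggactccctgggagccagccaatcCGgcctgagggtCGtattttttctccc

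The window of Cox8a held 19 CpGs and that of Cox8b 2, and the windows of Cox6b1 and Cox6b2 held 17 and 10. G+C content did not go one way, at 56% for Cox8a and 48.3% for Cox8b but 53% for Cox6b1 and 55.7% for Cox6b2. For the third pair, Cox7a2 held 20 and Cox7a1 7. Over the 76 promoters found for 71 member symbols the median was 19 CpGs and 57.3% G+C, against 7 CpGs and 52.7% over all 32851 promoters in the table. The letters of the NRF1 motif, CGCANGCG, occurred on either strand in 38.2% of member promoters and 8.21% of all promoters. The ETS letters CCGGAAG occurred in 21.1% and 8.86%, the YY1 letters AAGATGG in 14.5% and 6.34%, the ERR letters AAGGTCA in 9.21% and 4.72%, and the GC box GGGCGG in 42.1% and 35.7%. The Cox8a window held the ETS letters 2 times and the Cox6b1 window 1 time, neither the Cox8b nor the Cox6b2 window held them, and the only one of these letter strings in the Cox6b2 window was 1 GC box. These matches describe letters in a window and not binding.

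In pericyte-like cells a different pair of isoforms led. Cox4i2, the form of subunit 4 known from lung and from hypoxia (chr2:152754173-152765037, plus strand), stood at 1357, 1148, 1522 and 919 CPM, from 40, 54, 58 and 28 UMIs, and its mean was at most 11.9 in the other tested classes. It took 50, 55.1, 63.7 and 40% of subunit 4 UMIs (Cox4i1 plus Cox4i2), 180 of 339 UMIs in all, and the exact 95% interval of the lowest animal ran from 28.5 to 52.4%. Ndufa4l2, a hypoxia-responsive paralogue of Ndufa4 (chr10:127514967-127517154, plus strand, with Shmt2 on the opposite strand), stood at 2883, 2105, 2388 and 2001 CPM and at no more than a mean of 19.0 in the other tested classes. It took 91.4, 95.2, 96.8 and 88.4% of the UMIs of the Ndufa4 pair, 336 of 360 in all. Ndufa4 itself was low, at 271, 106, 78.7 and 262 CPM. The log2 differences by edgeR's quasi-likelihood test were 8.15 (SE 0.25) for Cox4i2, 8.67 (SE 0.19) for Ndufa4l2 and -2.62 (SE 0.24, adjusted p = 1.53e-25) for Ndufa4. No animal overlapped between pericyte-like cells and any other tested class for Cox4i2 or Ndufa4l2, and the 2 groups of animals overlapped with each other for both.

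Smooth muscle-like cells, the neighbours of pericytes on vessels, were too few to test (44 cells). In them Cox4i2 took 21.2% ± 4.65 and Ndufa4l2 56.1% ± 10.1 of their pairs, between pericyte-like cells and the rest. A cluster of 139 cells carrying all pericyte and all endothelial markers was left unnamed, and counting it as pericyte-like lowered the shares to 33.7% for Cox4i2 and 67.9% for Ndufa4l2. In the other direction, 23 members were called lower and 3 higher in pericyte-like cells (5.06% and 6.18% of all genes), with a member median of -0.41 against -0.57 over all genes. Atp5g1 (-1.28) and Atp5g3 (-1.16), both c-ring genes, were lower after Ndufa4. Both lost the call in the animals with inhibitors alone. Atp5g3 also lost it without replicate 1 of the mice without inhibitors (adjusted p = 0.0672 by edgeR's quasi-likelihood test). The same held for Atp5g3 with the unnamed cluster counted as pericyte-like (-0.43) and with total UMIs alone (-0.60). It held too with choroid plexus-like cells left out of the mean (-0.77) and with DESeq2 (-0.96). The lower calls depended on the scaling: with total UMIs alone 2 were lower and 8 higher, and the member median was 0.15.

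Microglia-like cells had 43 members called lower and 1 higher (17.8% and 28.8% of all genes), with a member median of -0.62 against 0.02. The exception was Cox7a2l, at 469, 481, 491 and 532 CPM in microglia-like cells and a mean of 142 in astrocyte-like cells (log2 difference 1.10, SE 0.10, adjusted p = 3.99e-27 by edgeR's quasi-likelihood test). In the unnamed leukocyte cluster it stood at 760. Cox6b2 (-2.23) and Cox7a1 (-1.67) were the members with lowest differences after Cox4i2, which was called lower on 5 UMIs in the 4 animals and lost the call without replicate 1 with inhibitors. Because choroid plexus-like cells enter the mean against which every other class is read, the comparison was repeated without them, as an alternative chosen after the data were seen. Microglia-like cells then had 21 members lower and 1 higher, with a median of -0.28.

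In astrocyte-like cells 8 members were called higher and 2 lower (28.4% and 12% of all genes), and the median was 0.14 for members and for all genes. With choroid plexus-like cells out of the mean 29 were higher and 1 lower (median 0.46). The assembly factor Ndufaf4 (log2 difference 1.28, SE 0.14) and Ndufc2 of complex I (1.03, SE 0.10) were higher, as was Cox4i2 (1.13) on 37 UMIs. Cox4i2 lost its call in the mice without inhibitors alone (1.11). Cox7a2l was lower (-1.08, SE 0.13), as was Ndufaf8 (-0.62). Ndufaf8 fell under the limit without replicate 1 of the mice without inhibitors (-0.53) and with choroid plexus-like cells out of the mean (-0.39). It also did so with DESeq2 size factors, with DESeq2 (-0.54 in each) and without the low-count filter (-0.57). Without replicate 1 of the mice without inhibitors 1 member was lower, and without replicate 2 of the same group 4 were.

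Endothelial-like cells had 3 members higher and 12 lower (27% and 14.5% of all genes; median -0.24 against 0.06). Ndufa7, an accessory subunit of complex I, stood at 977, 943, 956 and 866 CPM there (log2 difference 1.18, SE 0.09). The gene Kank3 ends 1653 bases upstream of Ndufa7 on the same strand of chromosome 17 and stood at a mean of 680 CPM in endothelial-like cells and at no more than 76.1 in the other tested classes. Whether reads of Kank3 were counted for Ndufa7 was not tested. Ndufa4l2 (1.5, SE 0.29), on 77 UMIs, and Cox7a2l (0.72, SE 0.10) were the others called higher. Cox7a2l fell under the limit with DESeq2 size factors and with DESeq2 (0.43 in each). The pericyte marker Rgs5 stood at a mean of 313 CPM in endothelial-like and 6070 in pericyte-like cells. Ndufa4l2 UMIs per 1000 were 64.2 and 390 beside Rgs5, and 273 and 139 beside the marker Vtn. The part of pericyte RNA in this call was not tested. Cox6b2 (-3.15), Cox8a (-0.92) and Atp5g1 (-0.84) led the lower calls. With choroid plexus-like cells out of the mean the calls of Cox8a (-0.52) and Atp5g1 (-0.23) were lost, 9 members were higher and 2 lower and the median was 0.074. DESeq2 size factors, which moved the median of all genes to -0.20, gave 36 lower, and without replicate 2 of the mice without inhibitors 5 were higher.

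Neuron-like cells had 60 members called lower and 1 higher (17.3% and 27.3% of all genes), with a median of -0.87 against 0.12. This count rested on the scaling, since DESeq2 size factors moved the median of all genes to 0.59 and gave 20 lower and 2 higher, and total UMIs alone moved it to 0.72 and gave 9 lower and 4 higher. The higher member, the assembly factor Ndufaf5 (1.31), was not called without replicate 1 of the mice without inhibitors. Ndufaf8 was lower by 1.73 on the log2 scale. Cox7a1 and Ndufa4l2 were called lower on 5 UMIs and 1 UMI, and each lost the call without 1 or more of the libraries. The subunit shares of this class were 3.0, 1.84, 1.77 and 2.41%, the widest spread relative to the mean among the tested classes.

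Oligodendrocyte-like cells had 4 members higher and 8 lower (23% and 17.7% of all genes; median -0.02 against -0.07). With choroid plexus-like cells out of the mean 17 were higher and 3 lower, and with total UMIs alone, which moved the median of all genes to -0.33, 1 was higher and 19 lower. The higher calls were led by the assembly factor Ndufaf2 (0.93, SE 0.15), Ndufs6 of complex I (0.66) and Cox6a1 (0.58). Cox6a1 fell under the limit on the log2 difference without replicate 2 of either group, and Cox6a1 and Ndufs6 did so with total UMIs alone, with DESeq2 size factors and with DESeq2 (0.39 to 0.31 for Cox6a1 and 0.47 to 0.39 for Ndufs6). Ndufs6 did so too in the animals without inhibitors alone (0.48). Cox7a1 was lower (-2.18), and Cox4i2 and Ndufa4l2 were called lower on 1 and 4 UMIs, Ndufa4l2 not without replicate 2 of the mice without inhibitors. Ependymal-like cells had 7 higher and 16 lower (26.2% and 14.1%; median -0.32 against 0.02), with 10 lower without replicate 1 of the mice without inhibitors. With choroid plexus-like cells out of the mean 3 were lower and the median turned to 0.055. The assembly factor Ndufaf8 (1.46) and the isoform Cox6b2 (1.44) were higher, as was Ndufaf6 on 20 UMIs, and Uqcrfs1 (-1.05), Ndufaf4 (-1.02) and Ndufa5 (-0.97) lower. The call of Ndufaf6 was lost without replicate 2 of the mice without inhibitors. In choroid plexus-like cells, the 2 members called lower were Cox4i2 and Ndufa4l2, each on 2 UMIs in 4 animals. Between 0 and 2 of these calls were kept when single animals were left out, with 0 kept without replicate 2 of the mice without inhibitors and 1 without replicate 1 of either group.

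Other genes of energy metabolism, taken from short lists, were read in the same fit. In choroid plexus-like cells all 4 genes of complex II, which links the citric acid cycle to the chain, were called higher (median log2 difference 1.70), as were both cytochromes c, 15 of 16 genes of pyruvate dehydrogenase and the citric acid cycle (1.2) and 5 of 6 inner membrane carriers and porins (1.70). Of 16 glycolytic genes 14 were higher and 1 lower (1.67), with 3.25 for Ldhb, the lactate dehydrogenase subunit that predominates in oxidative tissue. Of the 13 mitochondrially encoded subunits 11 were higher, with a median of 0.78 against 2.12 for the nuclear-encoded members. All these counts stand beside 25.8% of all genes called higher and 19.9% lower in this class. Among 7 transcriptional regulators of the chain, with a list median of 0.13, 3 were higher: the coactivator Ppargc1a (2.59), the nuclear receptor Esrra (1.76) and the mitochondrial transcription factor Tfb2m (1.02). In astrocyte-like cells 10 of 13 mitochondrially encoded subunits and 8 of 16 glycolytic genes were higher and none lower, against 28.4% and 12% of all genes. Of the same 16 glycolytic genes 9 were lower and 2 higher in microglia-like cells (17.8% of all genes lower) and in endothelial-like cells (14.5%), with medians of -0.63 and -0.93, and 10 were lower in oligodendrocyte-like cells (17.7%). Of 6 hypoxia response genes in pericyte-like cells, the hypoxia factor Epas1 (2.72, SE 0.23) and the vasodilator peptide gene Adm were called higher and Pdk1 and Bnip3 lower, where 6.18% and 5.06% of all genes were. The log2 differences of Adm, Pdk1 and Bnip3 had SEs of 0.95, 2.30 and 0.61 in this shallow class, and no size is given for them.

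The inhibitor comparison asked which transcript levels differ when cells are kept from responding to dissociation. Over all cells of each animal, no member was called in either direction by edgeR's quasi-likelihood test, against 0.0435% of 13804 genes. DESeq2 also called 0. By edgeR's quasi-likelihood test 42 of 86 members had an unadjusted p under 0.05, all with higher values without inhibitors. Over all genes 877 of 13804 had such a p in either direction. Values were higher without inhibitors for 82 of 86 members, with a median log2 difference of 0.23 against -0.01 over all genes. The smallest p belonged to Ndufc2 (log2 difference 0.44, SE 0.09, adjusted p = 0.295), Ndufb11 (0.45) and Atp5b (0.42). The share of all UMIs from choroid plexus-like cells moved with the groups, at 13.3 and 12.8% without and 8.83 and 4.35% with inhibitors. Without those cells the member median was 0.10. These cells were 151 of 2207, 195 of 2755, 155 of 2089 and 124 of 2810 kept cells, with median depths of 2601, 2378, 1916 and 1324 UMIs per cell, so that the depth was lower in both animals with inhibitors and the number of cells in 1 of them.

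Within classes other than choroid plexus-like cells no member was called, by edgeR's quasi-likelihood test or by DESeq2. In microglia-like cells 5 of 80 members had an unadjusted p under 0.05 by edgeR's quasi-likelihood test. Of all 8700 genes 549 had such a p, and 0.448% were called. Ndufa1 stood at a log2 difference of -0.39, Uqcrb at 0.32 and Ndufb9 at 0.32. Astrocyte-like cells had 4 of 81 (436 of 8358 genes, 0.0359% called), with Ndufaf3 at 0.64, Ndufs1 at 0.43 and Atp5g2 at -0.27. Endothelial-like cells had 5 of 80 (429 of 8340 genes, 0.024% called), with Ndufaf2 at 0.70, Ndufb5 at 0.32 and Uqcrh at 0.24. Oligodendrocyte-like cells had 6 of 78 (626 of 6467 genes, 0.201% called), with Ndufb11 at 0.34, Ndufc2 at 0.36 and Atp5f1 at 0.39. An unadjusted p under 0.05 was found for 2 of 72 members (86 of 3491 genes) in neuron-like cells. It was found for 4 of 77 (159 of 4105 genes) in ependymal-like cells and 1 of 49 (18 of 541 genes) in pericyte-like cells. In each of these classes 0% of all genes were called. Their members of smallest p were Ndufs4 (0.96), Ndufb7 (0.90) and Ndufs3 (0.73) in neuron-like cells, Atp5b (0.47), Ndufa11 (0.44) and Ndufa12 (0.43) in ependymal-like cells, and Ndufb4 (-0.79), Ndufb7 (0.71) and Ndufb8 (-0.61) in pericyte-like cells. The depth of pericyte-like cells let only 541 genes be tested.

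**Figure D3:**
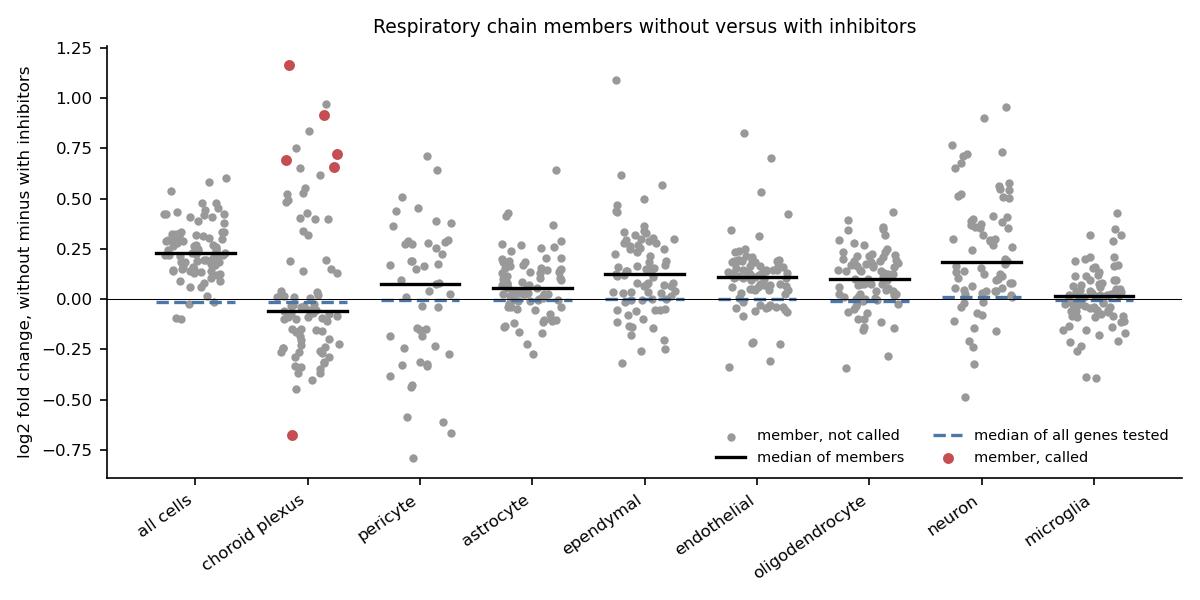
Log2 fold change without minus with inhibitors of every tested member (points) in all cells and in each class, with the medians of members (black) and of all genes tested (dashed blue). The 6 called members (red) all lie in choroid plexus-like cells.

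In choroid plexus-like cells 5 of 81 members were higher and 1 lower without inhibitors, where 4.49% of all 4633 genes were called, 3.73% higher and 0.755% lower. The median was -0.06 over members and -0.01 over all genes. Of the 5, 4 belonged to complex I. Ndufa9, a subunit that stabilises the junction of its arms, stood at 88.2 and 101 CPM without and 50 and 43.9 with inhibitors (log2 difference 1.16, SE 0.28, adjusted p = 0.00645). Ndufc2, an accessory membrane-arm subunit, stood at 639 and 591 against 352 and 395 (0.92, SE 0.13, adjusted p = 1.18e-05), and Ndufs3, a core subunit, at 333 and 320 against 212 and 241 (0.72, SE 0.16). Ndufb11 stood at 795 and 865 against 625 and 558 (0.66, SE 0.11). Atp5b of complex V stood at 1021 and 1335 against 792 and 865 (0.69, SE 0.10, adjusted p = 1.33e-05). Cox7a2l was lower without inhibitors, at 226 and 230 against 390 and 443 (-0.68, SE 0.15, adjusted p = 0.00271). The 6 were picked by the test on these same values, so a distance between the groups in them is no further evidence.

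**Figure D4:**
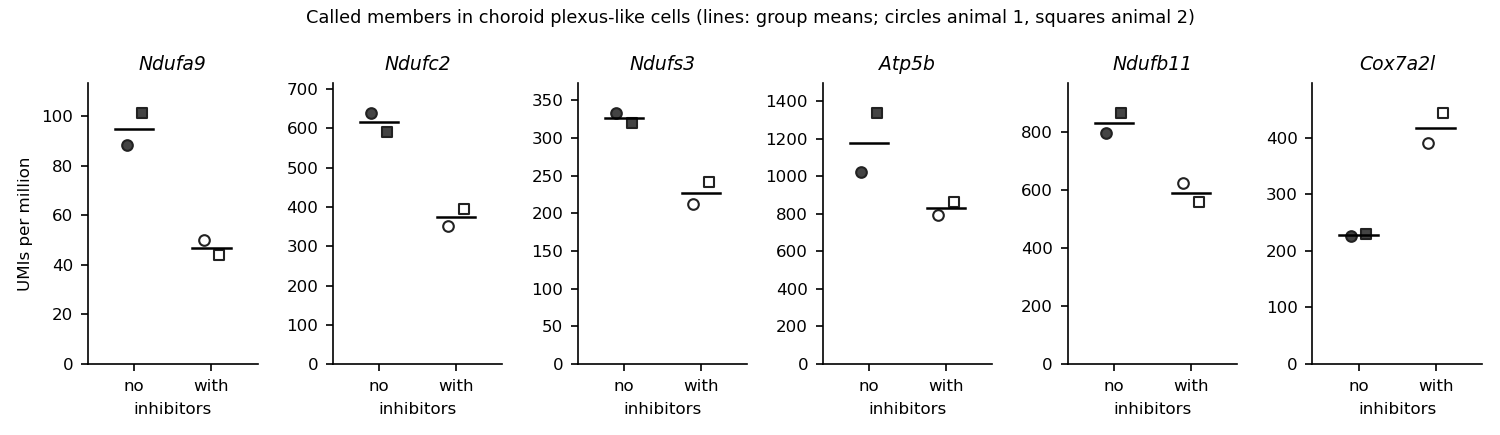
CPM of the 6 members called between the groups in choroid plexus-like cells, 2 animals per group with the group mean as a line. Each axis starts at 0, and the members shown were picked by the test on these values.

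With total UMIs alone, which moved the median of all genes to -0.19, the higher calls fell to 2, with Atp5b, Ndufb11 and Ndufs3 lost. Ndufa9 lost its call without either replicate with inhibitors (adjusted p = 0.106 and 0.0561), Ndufs3 without replicate 1 with inhibitors (0.138) and Cox7a2l without replicate 2 of either group. Without replicate 2 of the mice without inhibitors 9 members were higher and 0 lower, and without replicate 2 with inhibitors 0 were lower. Depth moved with the groups in this class, with medians of 2601 and 2378 UMIs per cell without and 1916 and 1324 with inhibitors, and so did the Ttr share given above; the part of either in these differences was not tested. A cluster of 39 very deep choroid plexus-like cells (median 11962 UMIs) was spread as 11, 20, 5 and 3 over the animals, and without it 9 members were higher and 1 lower.

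Whether the inhibitor effect differed between classes was tested in 1 fit over all 8. Ndufc2 (difference of log2 effects 0.81, adjusted p = 0.0201) and Atp5b (0.62, adjusted p = 0.0431) were called for choroid plexus-like cells against the mean effect of the other 7 classes by edgeR's quasi-likelihood test, where 0.343% of 13109 genes were called, 0.328% higher and 0.0153% lower. Without replicate 1 or without replicate 2 of the mice without inhibitors 1 member was called, and without either of those with inhibitors 0. In the other classes no member was called by this test, and no other tool was run on this difference. Between 0 (ependymal-like) and 7 (microglia-like) of 85 members had an unadjusted p under 0.05, beside 398 and 406 of 13109 genes in these classes. Of all genes, 0.0763% were called for microglia-like, 0.00763% for endothelial-like and 0.00763% for ependymal-like cells and 0% for the rest. Of the lists of other metabolic genes, 1 gene was called between the groups in any class, Ldhb in choroid plexus-like cells (log2 difference 0.58).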

How the data were processed

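The authors deposited raw UMI counts per gene and barcode, made with Cell Ranger 3.0.0 on mm10 with Ensembl 93 genes. Their later cell filters were not applied here. Barcodes with at least 400 genes and at most 20% mitochondrial UMIs were kept, 206 simulated-neighbour doublets were removed, and cells were clustered (30 principal components, leidenalg 0.10.2, resolution 1) without the respiratory chain, mitochondrially encoded and activation genes. A cluster took a name when at least 3 fixed markers passed a log2 fold of 1 over the other cells and were seen in 10% of its cells. The rules for a mixed and a leukocyte cluster were set with the clusters in view. UMIs were summed per animal and class and tested with edgeR 4.0.16 (TMM, filterByExpr, robust quasi-likelihood), and with DESeq2 1.42.0 as an alternative, after the fits had been tested on simulated data. Replicates are separate animals. In the inhibitor comparisons over all cells or within a class, p-values measure the spread between 2 per group. For the comparisons of classes and of effects between classes, they measure the spread left over class sums with the animal as block. Shares and ratios are described without a test.

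Genes named are all members called between inhibitor groups (or the 3 of smallest p), the 3 highest and 3 lowest called per class, the isoform genes, and 6 core subunits. Values named beyond this rule were chosen after they were seen. Members and gene lists were chosen with earlier results of these data known. Gene places come from GENCODE M21, and promoter sequences from RefSeq. Alternatives changed the scaling, filters, cells, animals and tool. The values of 1 member are not reported here.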

Additional observations from a re-analysis of the deposited data

Results flagged for a closer look

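The inhibitor effect on 2 members differed between choroid plexus-like cells and the mean of the other 7 classes in the test of that difference itself. For Ndufc2 the log2 effect (without minus with inhibitors) was higher by 0.81 than the mean effect of the other classes, and for Atp5b by 0.62. Both rest on 2 animals per group. Leaving out either animal without inhibitors left 1 of these calls, leaving out either animal with inhibitors left 0, and DESeq2 size factors left 1. The UMI depth, the Ttr share and the share of very deep cells of the choroid plexus-like class also differed between the groups, and their part in these values was not tested.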

How the results depend on the processing

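Of 72 named log2 values, 24 lost their call in at least 1 alternative and 0 changed sign. In the inhibitor comparison, using no low-count filter gave 2 members higher over all cells and 1 in microglia-like cells, where there had been 0. In choroid plexus-like cells, 10 members were higher with at most 10% mitochondrial UMIs, 2 with total UMIs alone and 9 without the deep cluster, and leaving out single animals gave 4 to 9 higher and 0 to 1 lower. The member median in neuron-like cells ran from -0.23 to 0.53 when single animals were left out. The test of the difference between classes gave 0 to 1 member for choroid plexus-like cells without single animals and 1 with DESeq2 size factors.

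In the class comparisons leaving out single animals gave 1 to 4 lower in astrocyte-like, 3 to 5 higher in endothelial-like, 0 to 1 higher in neuron-like, 10 to 20 lower in ependymal-like and 0 to 2 lower in choroid plexus-like cells. With choroid plexus-like cells out of the mean, microglia-like cells had 21 lower, astrocyte-like cells 29 higher and 1 lower, endothelial-like cells 9 higher and 2 lower (median 0.074), oligodendrocyte-like cells 17 higher and 3 lower, neuron-like cells 36 lower, ependymal-like cells 3 lower (median 0.055) and pericyte-like cells 5 higher and 4 lower. DESeq2 size factors gave 1 lower in astrocyte-like, 36 lower in endothelial-like, 1 higher and 15 lower in oligodendrocyte-like, 2 higher and 20 lower in neuron-like, 10 lower in ependymal-like and 8 lower in pericyte-like cells, and 1 lower in choroid plexus-like against ependymal-like cells. DESeq2 as the test gave 2 higher in microglia-like, 1 lower in astrocyte-like, 37 lower in endothelial-like, 1 higher and 16 lower in oligodendrocyte-like, 2 higher and 17 lower in neuron-like, 9 lower in ependymal-like and 6 lower in pericyte-like cells, and 1 lower in the pair. Total UMIs alone gave 1 higher and 19 lower in oligodendrocyte-like, 4 higher and 9 lower in neuron-like, 8 lower in ependymal-like and 8 higher and 2 lower in pericyte-like cells (median 0.15), and 4 lower in the pair. No low-count filter gave 2 higher in microglia-like, 1 lower in astrocyte-like and 1 lower in choroid plexus-like cells. The animals with inhibitors alone gave 3 higher in microglia-like, 4 lower in astrocyte-like, 0 lower in choroid plexus-like, 0 higher in neuron-like and 5 lower in pericyte-like cells, and those without gave 1 lower in choroid plexus-like and 7 lower in pericyte-like cells. The 2 lower calls of choroid plexus-like cells became 1 with at most 10% mitochondrial UMIs, with the mixed cluster as pericyte-like and without the deep cluster, and the last gave 2 higher in oligodendrocyte-like cells. Where no value shows it, the cause was not tested.

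Leaving mitochondrially encoded UMIs out of the total put the subunit share at 1.75% in microglia-like, 3.22% in astrocyte-like, 2.53% in endothelial-like, 2.53% in oligodendrocyte-like, 2.76% in ependymal-like and 3.57% in pericyte-like cells. It was 10.1% in choroid plexus-like cells with at most 10% mitochondrial UMIs, 9.47% without the deep cluster, and 2.31% in pericyte-like cells with the mixed cluster. The 10% limit put the ratio to mitochondrially encoded UMIs at 0.379 in microglia-like, 0.406 in astrocyte-like, 0.448 in endothelial-like, 2.39 in choroid plexus-like, 0.477 in neuron-like and 0.407 in ependymal-like cells, and the Atp5g1 share at 76.3%. The mixed cluster lowered the Cox4i2 and Ndufa4l2 shares of pericyte-like cells to 33.7% and 67.9%.

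Replicate numbers are shared by the groups, and over 9979 genes the deviations of same-numbered animals correlated by 0.0928. Olfactory ensheathing-like cells came from replicate 1 of both groups alone, at 29, 0, 32 and 0 cells in the order of animals used above. Whether same-numbered animals were handled together was not tested, and with 2 pairs the numbers were not read as pairs. With the replicate block 29 genes in place of 6 were called over all cells, of which 0 were members, and in choroid plexus-like cells 7 members were higher and 1 lower. Depth limits the rest: pericyte-like cells held 29483 to 47039 UMIs per animal, and isoforms at 0 to 5 UMIs carry no size. The comparison of pericyte-like with smooth muscle-like cells was not run because the latter were too few.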

Other observations

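Barcodes with at least 400 genes that were removed for more than 20% mitochondrial UMIs numbered 137, 151, 100 and 137 in the 4 animals. Their nuclear-encoded subunits took 2.49, 3.54, 2.64 and 3.18% of the UMIs that were not mitochondrially encoded, against 3.23, 3.33, 3.09 and 2.72% in the kept cells. The ranges overlapped. Cox6a2, the muscle form of subunit 6a, was rare throughout, with 40 UMIs in microglia-like cells (8.59 CPM), 5 in macrophage/monocyte-like cells, all from replicate 2 of the mice without inhibitors and 0 in the other 3 animals, and 6 in the unnamed leukocyte cluster (37.7 CPM).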
